A study of Mus musculus with 4 samples.

Results

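The genes of the mitochondrial carrier family whose symbols start with Slc25a were followed in CUT&RUN peak lists from mouse medullary thymic epithelial cells. All protein-coding RefSeq genes of mm10 with such a symbol were taken, which gave 47 of 21631 genes. The family was singled out because the leading region seen in mTEClo but not mTEChi lists lies inside Slc25a54. The peaks of Slc25a54 therefore chose the family, and they are given as a description with no test. In CUT&RUN, a tethered nuclease releases DNA next to sites where an antibody has bound its target in nuclei.

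The groups were mTEChi and mTEClo, with 2 libraries of each, both from thymi of mice aged 4 to 5 weeks that were wild type for Trp53 (Trp53-WT), the gene of the transcription factor p53. Cells were enriched with an antibody against the epithelial marker EpCAM, stained for sorting, and used at 500000 per condition. Neither the sorting gates, the mouse strain nor the origin of replicates from separate mice is stated by the labels, so values per library show only the spread between libraries, which may be technical. Titles of the samples give anti-P53, but the written protocol gives anti-BAF155, which binds a core component of BAF chromatin remodellers. They do not settle which protein the peaks mark. In common usage mTEChi cells carry much surface MHC class II and are the more mature, and mTEClo cells carry little.

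Mitochondrial carriers are nuclear-encoded membrane proteins that move metabolites, nucleotides, cofactors and ions across the mitochondrial inner membrane, mostly by exchanging a substrate on one side for another on the other side. Through them pass the ADP and phosphate that feed ATP synthesis, the ATP that leaves, and the amino acids, carboxylates, iron and cofactors used in the matrix. A few members sit elsewhere, such as Slc25a17 in peroxisomes and Slc25a46 in the outer membrane. In the thymic medulla these epithelial cells present self-antigens to T cells, and p53 is a stress-responsive regulator of cell cycle, death and metabolism genes.

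Promoters of 6 members are shown because the results turn on them. Slc25a3, Slc25a28 and Slc25a42 held the strongest peaks that lay at a member's own start, judged by the worst place over all lists. Slc25a4 stands for the ADP/ATP carriers, Slc25a11 holds a match to the p53 core motif beside a peak, and Slc25a54 is the gene that led to the family. Each line gives the 250 bases before the annotated start, read 5′ to 3′ on the gene's strand, from RefSeq (GRCm38.p6, the mm10 assembly). Capitals mark letters that match the GC box GGGCGG, the Ets motif CCGGAAG, the NF-Y box CCAAT, the cAMP response element TGACGTC or the p53 core motif of 10 bases, on either strand. A full p53 site is a pair of such core motifs, so a match is not a full site, and full sites were not searched for.
Slc25a3, chr10:91123968-91124217, minus strand: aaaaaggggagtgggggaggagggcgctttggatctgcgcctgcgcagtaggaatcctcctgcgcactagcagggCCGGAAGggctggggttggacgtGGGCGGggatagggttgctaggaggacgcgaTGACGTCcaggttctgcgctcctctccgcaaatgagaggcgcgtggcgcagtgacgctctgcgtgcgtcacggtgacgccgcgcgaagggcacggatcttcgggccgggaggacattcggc
Slc25a28, chr19:43674882-43675131, minus strand: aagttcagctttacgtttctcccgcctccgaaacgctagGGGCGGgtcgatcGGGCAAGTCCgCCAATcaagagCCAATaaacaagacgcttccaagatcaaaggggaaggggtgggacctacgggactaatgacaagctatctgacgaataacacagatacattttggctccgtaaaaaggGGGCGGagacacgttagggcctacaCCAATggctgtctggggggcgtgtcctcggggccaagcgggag
Slc25a42, chr8:70212282-70212531, minus strand: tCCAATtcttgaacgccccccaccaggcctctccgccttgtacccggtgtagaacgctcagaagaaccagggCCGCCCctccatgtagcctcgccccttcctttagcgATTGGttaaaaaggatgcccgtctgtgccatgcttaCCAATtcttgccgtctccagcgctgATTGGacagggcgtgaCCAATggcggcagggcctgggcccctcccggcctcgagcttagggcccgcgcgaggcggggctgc
Slc25a4, chr8:46211063-46211312, minus strand: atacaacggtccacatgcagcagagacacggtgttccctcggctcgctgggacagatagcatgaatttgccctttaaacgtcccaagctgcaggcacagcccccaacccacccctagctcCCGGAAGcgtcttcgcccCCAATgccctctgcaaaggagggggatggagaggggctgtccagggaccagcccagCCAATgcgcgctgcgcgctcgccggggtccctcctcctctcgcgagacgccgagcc
Slc25a11, chr11:70647040-70647289, minus strand: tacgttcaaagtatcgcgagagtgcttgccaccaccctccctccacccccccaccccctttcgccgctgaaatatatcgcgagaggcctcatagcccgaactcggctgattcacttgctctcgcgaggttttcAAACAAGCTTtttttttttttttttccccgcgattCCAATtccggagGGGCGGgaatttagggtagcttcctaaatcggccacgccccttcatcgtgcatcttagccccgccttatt
Slc25a54, chr3:109080249-109080498, plus strand: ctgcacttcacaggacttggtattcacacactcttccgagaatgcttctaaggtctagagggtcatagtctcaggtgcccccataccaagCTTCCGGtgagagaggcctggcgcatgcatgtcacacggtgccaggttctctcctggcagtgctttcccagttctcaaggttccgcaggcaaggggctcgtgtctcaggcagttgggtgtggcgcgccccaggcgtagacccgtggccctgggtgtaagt

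The 6 promoters differ in content. The Slc25a3 promoter has 27 CpG dinucleotides and single matches to the Ets motif, the GC box and the cAMP response element, which begin at -175, -152 and -121 from the start. The Slc25a28 promoter has 17 CpG dinucleotides, GC boxes at -211 and -68, NF-Y boxes at -187, -176 and -43, and a p53 core match at -198. In Slc25a42, a GC box lies at -178 and NF-Y boxes lie at -249, -142, -106, -81 and -65. The Slc25a11 promoter has its p53 core match at -117, an NF-Y box at -82 and a GC box at -70. The Slc25a4 promoter holds an Ets motif at -130 and NF-Y boxes at -112 and -56. The Slc25a54 promoter has 10 CpG dinucleotides and, of these motifs, holds an Ets match at -160.

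Most carrier genes had a peak in or near them in each of the 4 libraries, as most protein-coding genes did. A call means that a peak's summit, the centre of its deposited interval, lay inside the gene or at most 5 kb away. In mTEChi replicates 1 and 2, 33 and 35 of the 47 members were called (70.2% and 74.5%), against 69.3% and 73% of all protein-coding genes. In mTEClo replicates 1 and 2, 39 and 38 members were called (83% and 80.9%), against 75.5% and 68.8% of all genes. All 4 libraries called 27 members (57.4%, against 51.9% of all genes), both mTEChi libraries called 28 (59.6%, against 61.2%), both mTEClo libraries called 35 (74.5%, against 63.1%) and no library called 4 (8.51%, against 12.8%). The members' share was above that of all genes in each single library, and below it for both mTEChi libraries together. The median length was 21491 bp for members and 17329 bp for all genes. Among members it was 20666 bp for those called in all 4 libraries and 26652 bp for those called in fewer, and the part of length in the calls was not tested.

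**Figure D1:**
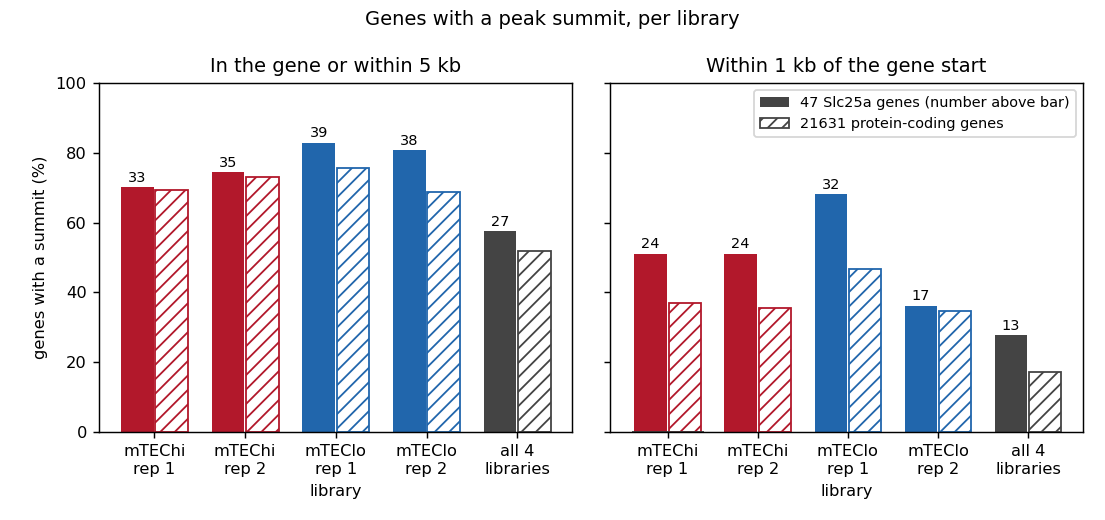
Share of genes with a summit in the gene or within 5 kb (left) and within 1 kb of the start (right), in percent on the y axis, for each library and for all 4 together on the x axis. Solid bars are the 47 Slc25a genes, with their number above, and hatched bars all 21631 protein-coding genes. Solid bars stand close to hatched ones for mTEChi on the left, and mTEClo replicate 1 has the highest solid bar on the right, 32 members.

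Leaving out Slc25a54, both mTEClo libraries called more members than both mTEChi libraries, with counts of 33 and 34 in mTEChi and 38 and 37 in mTEClo. The means were 33.5 ± 0.707 in mTEChi and 37.5 ± 0.707 in mTEClo (SD, n = 2 each), a difference of -4 of 46 members (exact permutation test, two-sided, p = 0.33). That p is the smallest possible for 2 against 2 libraries, so no such count could pass a threshold of 0.05. The difference was -0.5 with peaks above the median score, -1.5 with windows of 25 kb and -2.5 with windows of 1 kb, and it turned to 3.5 when each list was limited to its 10000 highest scores. The density of peaks in the merged windows of these 46 genes was 5.18 and 5.09 per 100 kb in mTEChi and 5.92 and 4.39 per 100 kb in mTEClo (two-sided exact permutation test, p = 1). That difference of -0.0231 was far below the spread between the mTEClo libraries. It turned to 0.740 without mTEClo replicate 1, to 0.0231 without mTEChi replicate 2 and to 0.270 without Slc25a21, the longest member. With Slc25a54, the densities were 5.08 and 5.03 in mTEChi and 5.85 and 4.35 in mTEClo. Over the windows of all protein-coding genes, density was 3.71 and 4.31 in mTEChi and 4.64 and 3.54 in mTEClo, below the members' density in each of the 4 libraries.

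At gene starts the share of carriers with a peak was above that of all genes in each of the 4 libraries, narrowly so in mTEClo replicate 2. These shares count either gene end where no start is known. A summit lay within 1 kb of the start of 24 and 24 members in mTEChi replicates 1 and 2 (51.1% each, against 36.8% and 35.5% of all genes). In mTEClo replicates 1 and 2 this held for 32 and 17 members (68.1% and 36.2%, against 46.7% and 34.5%). The mTEClo libraries thus stood on either side of the mTEChi libraries. Without Slc25a54 the means were 23.5 ± 0.707 in mTEChi and 24.5 ± 10.6 in mTEClo (SD, n = 2 each; two-sided exact permutation test, p = 1). That difference of -1 turned to 6.5 without mTEClo replicate 1. All 4 libraries had a summit at the start of 13 members (27.7%, against 17.1% of all genes), and none had one at the start of 9 (19.1%, against 37%). The start is known for 36 members, and either gene end was used for the other 11. Among the 36, all 4 libraries marked 8 (22.2%, against 17.9% of the 17274 genes with a start). The 17 members of mTEClo replicate 2 include Slc25a27, Slc25a32, Slc25a35, Slc25a44 and Slc25a51, which have no known start. Its narrow margin over all genes is therefore not shown for known starts alone.

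The 8 members with a known start that were marked in all 4 libraries were Slc25a3, Slc25a4, Slc25a11, Slc25a20, Slc25a23, Slc25a28, Slc25a42 and Slc25a48. Slc25a27, Slc25a32, Slc25a35, Slc25a44 and Slc25a51 were marked at a gene end. Members with no summit at a start included Slc25a1, Slc25a2, Slc25a5, Slc25a18, Slc25a25, Slc25a34, Slc25a40 and Slc25a53.

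**Figure D2:**
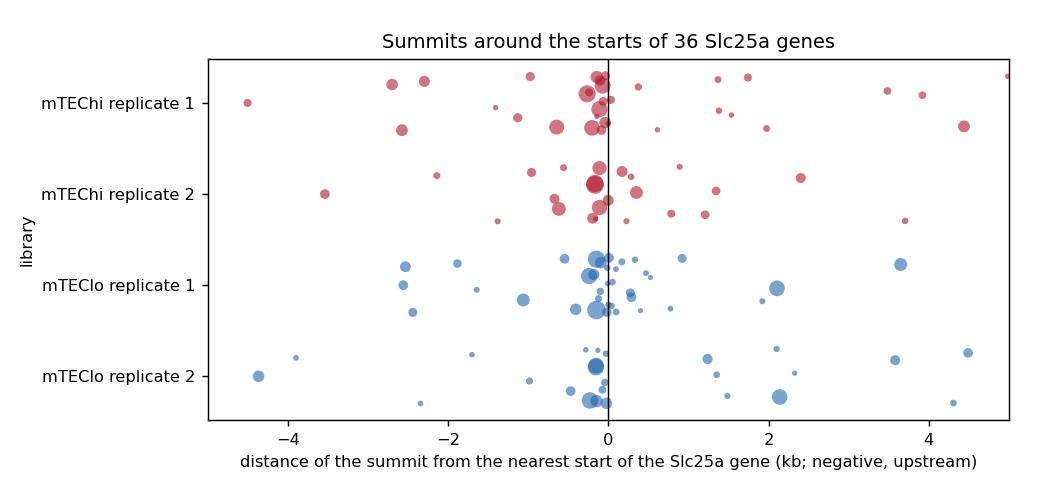
Distance of peak summits from the nearest annotated start of 36 Slc25a genes, in kb on the x axis with upstream negative, for each library on the y axis. Each point is a peak, larger when it stands higher in its list, and vertical jitter has no meaning. The largest points gather just upstream of the start in all 4 libraries, and the large mTEClo points near 2.1 kb are those of Slc25a54.

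Merging overlapping peaks of the 4 lists gave 315 regions in the members' windows. Of these, 17 (5.40%, against 1.99% of all 259773 regions) held a peak in all 4 libraries, 21 (6.67%, against 2.98%) in 3, 36 (11.4%, against 9.67%) in 2 and 241 (76.5%, against 85.4%) in a single library. Regions shared by the mTEChi libraries and without an mTEClo peak numbered 8 (2.54%, against 1.83%). Regions of the opposite kind numbered 13 (4.13%, against 2.75%), the Slc25a54 region among them. The rule used this contrast, so nothing is read from the last 2 shares.

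**Figure D3:**
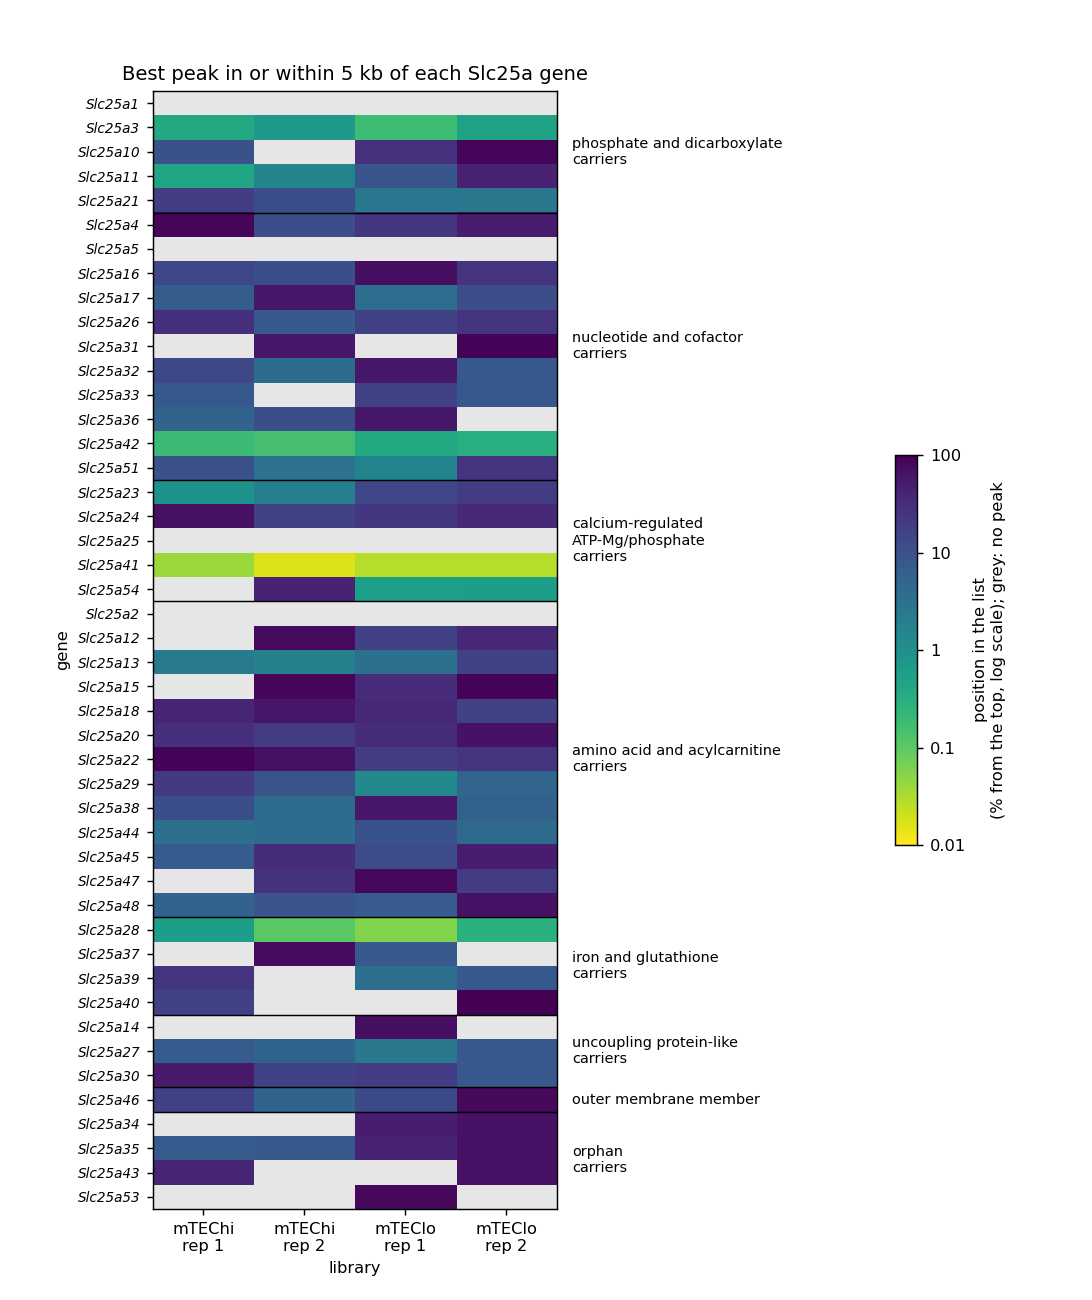
Position of the best peak of each of 46 Slc25a genes (y axis, grouped by the role of the carrier) in the list of each library (x axis), in percent from the top of the list on a log colour scale, grey where no peak was listed. The brightest rows are Slc25a41, Slc25a42, Slc25a28 and Slc25a3, and Slc25a54 is bright in the mTEClo columns alone.

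Among the phosphate and carboxylate carriers, Slc25a3 carried the strongest peak in all libraries. It encodes the carrier that brings phosphate into the matrix for ATP synthesis (chr10:91116574-91124046). Scores are the authors' own, and they serve only to place a peak within its list. They were 34.3 and 14.4 in mTEChi replicates 1 and 2 and 26.4 and 14.6 in mTEClo replicates 1 and 2. Those peaks lay in the top 0.371%, 0.714%, 0.173% and 0.501% of their lists in that order, so the states overlapped. Their summits stood at -112 and -111 bp from the start in mTEChi and at -150 and -154 bp in mTEClo, beside the cAMP response element and GC box printed for that promoter.

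Slc25a11, the oxoglutarate/malate carrier of the malate-aspartate shuttle, stood higher in the mTEChi lists. Its best scores were 31.8 and 10.2 in mTEChi (top 0.452% and 1.58%) and 7.90 and 4.24 in mTEClo (top 8.39% and 41.4%). The positions did not overlap between the states. The summits lay at -72 and -111 bp in mTEChi and at -408 and -75 bp in mTEClo, and mTEClo replicate 1 had another summit at 7 bp. Rnf167, a ubiquitin ligase gene, ends within 1 kb of this start, and its end was the nearest one in 3 of the 4 libraries. Which of the genes the peak belongs to cannot be told from the lists.

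Slc25a21, the oxodicarboxylate carrier, spans 484839 bp and held many peaks across its body, 17 and 19 in mTEChi and 25 and 21 in mTEClo. Its best peaks stood in the top 19% and 10.8% of the mTEChi lists and the top 2.69% and 2.57% of the mTEClo lists. The mTEClo pair formed a region without an mTEChi peak (chr12:56780922-56781351, scores 11.3 and 9.0), 68312 bp from Pax9, the nearest gene by its ends and a transcription factor gene of pharyngeal pouch development. Slc25a21 also held a region of both mTEChi libraries alone (chr12:56827907-56828271, scores 5.38 and 2.04). A further region of both mTEClo libraries alone lay close to it (chr12:56829057-56829785, scores 5.51 and 7.27). Slc25a10, the dicarboxylate carrier, was called in mTEChi replicate 1 and both mTEClo libraries, each time with a best peak nearer to Mrpl12, a mitochondrial ribosomal protein gene. Slc25a1, the citrate carrier that feeds cytosolic acetyl-CoA, had no summit within 5 kb in any library. Its closest summits lay 33480 and 31272 bp away in mTEChi and 33458 and 31910 bp away in mTEClo.

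Carriers of nucleotides and cofactors numbered 12, of which 7 were called in all 4 libraries, beside 51.9% of all genes. Slc25a42, which imports coenzyme A (chr8:70184340-70212281), led them with scores of 46.7 and 26.3 in mTEChi and 21.7 and 17.1 in mTEClo. Its peaks lay in the top 0.185% and 0.154% of the mTEChi lists and the top 0.365% and 0.296% of the mTEClo lists, and these positions did not overlap. Summits stood upstream of the start at -266 and -168 bp in mTEChi and at -242 and -157 bp in mTEClo. The summit of mTEChi replicate 1 lay just outside the printed 250 bases, and the other 3 lay inside them.

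The ADP/ATP carriers, which exchange ADP for ATP and are among the most abundant mitochondrial proteins, differed from each other. Slc25a4, the form best known from heart and muscle, had a summit within 45 bp of its start in every library, at -2 and -2 bp in mTEChi and at -18 and -45 bp in mTEClo. The scores were modest, 2.70 and 5.43 in mTEChi (top 86.9% and 10.8%) and 5.66 and 3.94 in mTEClo (top 23% and 48.8%), with overlapping positions. Slc25a5, the form of dividing cells, had no summit within 5 kb in any library. Its closest summits were 15830 and 9192 bp away in mTEChi and 9141 and 48481 bp away in mTEClo. Slc25a31, known from germ cells, was called in the second replicate of each state, with scores of 3.34 in mTEChi and 2.62 in mTEClo. The mTEClo call rested on a summit 4923 bp outside the gene.

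Of the other members of this group, Slc25a36, a pyrimidine nucleotide carrier, had summits at -147 and -197 bp in mTEChi (top 5.31% and 10.8%). In mTEClo replicate 1 its summit stood at -123 bp (top 55.4%), and mTEClo replicate 2 listed none. Slc25a32, linked to folate and FAD transport, had a summit within 83 bp of a gene end in all 4 libraries, next to the end of Dcaf13. Slc25a51, the NAD carrier, had its best mTEClo replicate 1 peak in the top 1.58% of the list. Its other best peaks lay in the top 10.2% and 3.27% in mTEChi and the top 24.3% in mTEClo replicate 2.

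The ATP-Mg/phosphate carriers adjust the adenine nucleotide content of the matrix. Of the 5 members in this group, 3 were called in all 4 libraries, beside 51.9% of all genes. Slc25a54 (chr3:109080499-109116582) lies directly before Slc25a24 on chromosome 3, and the RefSeq table gives SCaMC-1like as its synonym, after the short name of Slc25a24. Its mTEClo summits stood 2105 and 2138 bp inside the gene from its start, in replicates 1 and 2. The scores there were 18.9 and 13.8, in the top 0.559% and 0.602% of the mTEClo lists. At this region, chr3:109082454-109082787, no mTEChi peak was listed. In mTEChi replicate 2 a weaker peak with a score of 3.83 (top 40%) stood 785 bp inside the gene, and mTEChi replicate 1 listed no peak in the gene or within 5 kb. The gene as a whole was therefore called in 3 libraries, while the region held mTEClo peaks alone. None of the 4 lists had a summit in the printed promoter. The sequence of the region itself was not used here.

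**Figure D4:**
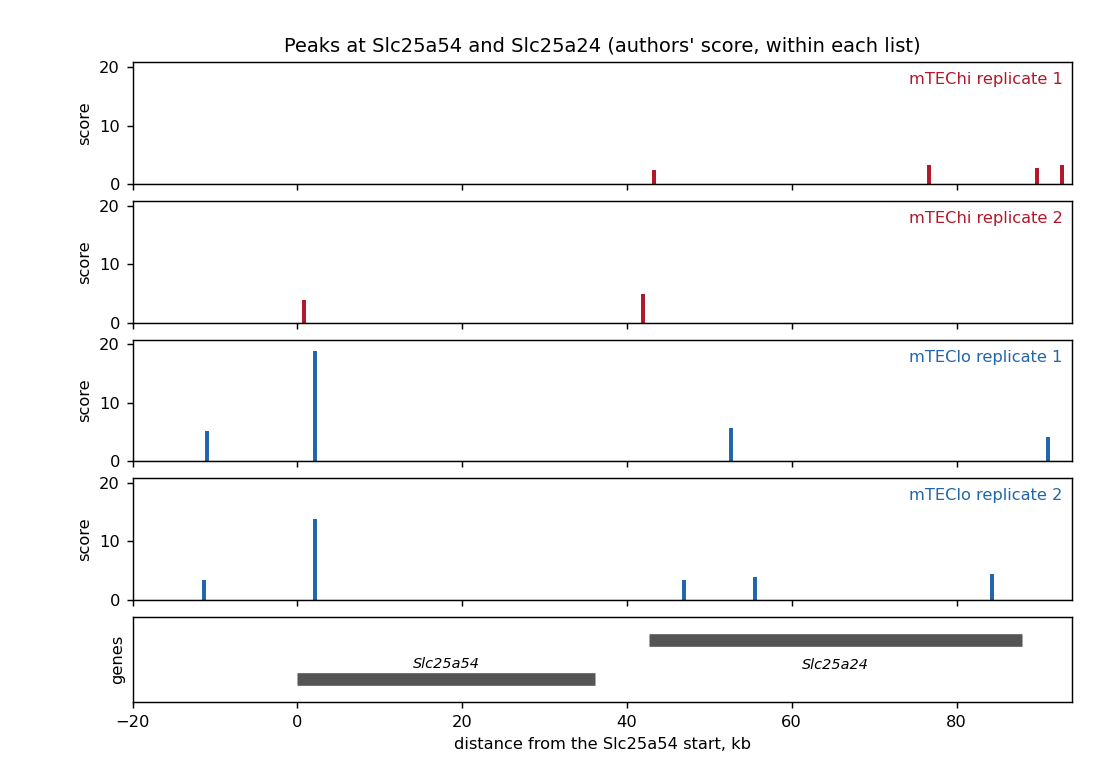
Peaks from 20 kb before Slc25a54 to 5 kb past Slc25a24, as distance from the Slc25a54 start in kb on the x axis and the authors' score on the y axis, in a panel per library with mTEChi in the upper panels. The tall line near 2.1 kb is present in both mTEClo panels, with scores of 18.9 and 13.8, and absent from both mTEChi panels.

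Its neighbour Slc25a24 had modest peaks in all 4 libraries, with best scores of 3.19 and 4.88 in mTEChi and 5.66 and 4.42 in mTEClo. Only the mTEChi libraries had a summit within 1 kb of its start, at 612 and -673 bp, which are not the same site. The closest mTEClo summits stood at 10018 and 4309 bp. Across all genes, 1.72% had a start marked in both mTEChi libraries alone. Among the carriers, 2 did, Slc25a24 and the glycine carrier Slc25a38. The opposite pattern, at 4.01% of all genes, was found at Slc25a45 alone.

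Slc25a41 and Slc25a23 lie beside each other on chromosome 17. The best peak of the Slc25a41 window was the highest of the whole family, with scores of 82.4 and 53.3 in mTEChi and 43.4 and 34.7 in mTEClo. It ranked in the top 0.0395% and 0.0164% of the mTEChi lists and the top 0.0278% and 0.0274% of the mTEClo lists. This region, chr17:57031618-57031992, stood 937 and 940 bp outside Slc25a41 in mTEChi and 930 and 1004 bp outside it in mTEClo. The end of Khsrp, an RNA-binding protein gene, was nearer in every library. Slc25a23 had summits upstream of its start at -646 and -619 bp in mTEChi, with scores of 23.6 and 9.35 (top 0.918% and 1.9%). At the same region, chr17:57060185-57060659, the mTEClo scores were 5.99 and 5.43 (top 19.6% and 19.2%), so the mTEChi positions were higher and did not overlap the mTEClo ones. Slc25a25 had no summit within 5 kb in any library, and no closer summit than 37418 bp in the 3 libraries that had one within 50 kb.

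**Figure D5:**
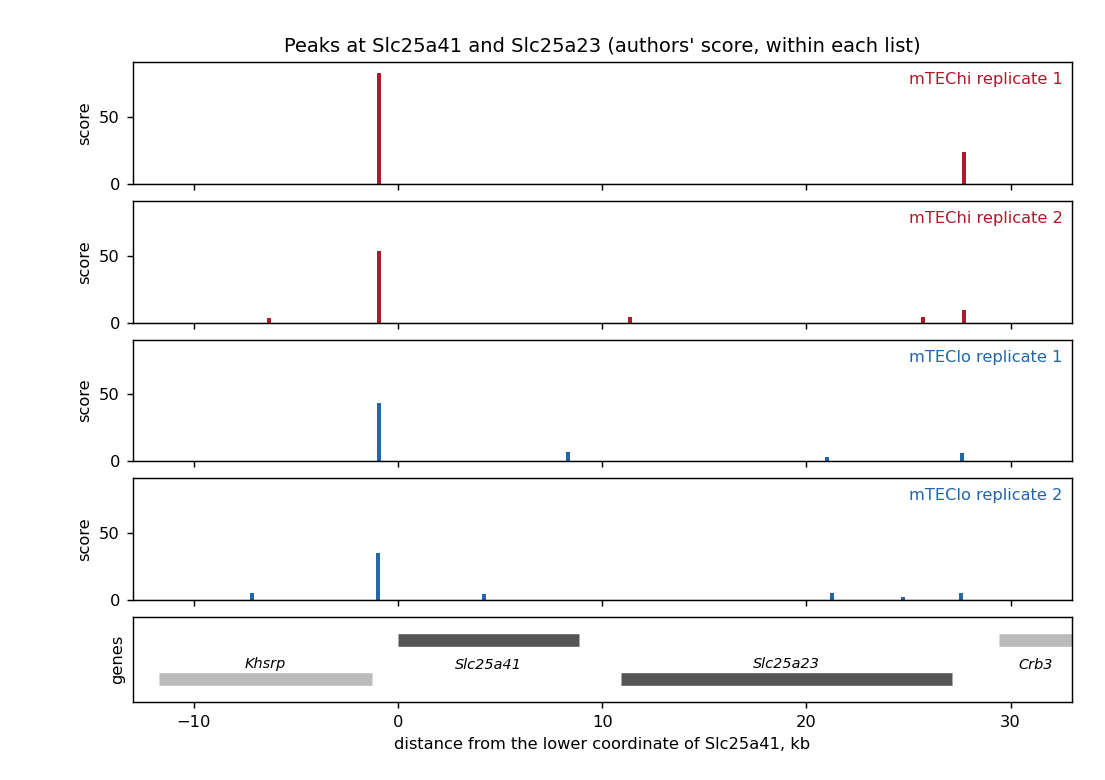
Peaks from 13 kb before Slc25a41 to 5 kb past Slc25a23, as distance from the lower coordinate of Slc25a41 in kb on the x axis and the authors' score on the y axis, in a panel per library with mTEChi in the upper panels. The tall line just outside Slc25a41, on the Khsrp side, stands in all 4 panels, and the line past the upper end of Slc25a23 is taller in the mTEChi panels.

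Carriers of amino acids and acylcarnitines numbered 13, of which 9 were called in all 4 libraries, beside 51.9% of all genes. Slc25a44, which carries branched-chain amino acids, had a summit within 132 bp of a gene end in every library. Its scores were 12.4 and 7.23 in mTEChi (top 3.36% and 3.83%) and 7.39 and 7.75 in mTEClo (top 9.76% and 4.21%). The mTEChi positions were higher, by a narrow margin. Slc25a13, the aspartate/glutamate carrier citrin, held a region far inside the gene in all 4 libraries (chr6:6150357-6150803), 66724 bp from its nearest end. Scores there were 15.5 and 9.75 in mTEChi and 8.63 and 5.46 in mTEClo. The related Slc25a12, aralar, was called in mTEChi replicate 2 with a single peak and in the mTEClo libraries with 6 and 4. Slc25a29, a carrier of basic amino acids, had best peaks in the top 21.9% and 9.02% of the mTEChi lists and the top 1.27% and 4.97% of the mTEClo lists. The mTEClo positions were the higher ones there, though the best peaks lay at different sites. Their summits stood at -85 and 6131 bp from the start in mTEChi and at 8016 and -148 bp in mTEClo. Slc25a20, the carnitine/acylcarnitine carrier of fatty acid oxidation, had summits within 159 bp of its start in all 4 libraries. Slc25a2, an ornithine carrier, is one of the shortest members at 1346 bp and was called in none.

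Of the iron and glutathione carriers, Slc25a28 stood out. It encodes mitoferrin 2, which imports iron for heme and iron-sulfur clusters (chr19:43663801-43675006). Its peak had scores of 28.7 and 29.98 in mTEChi (top 0.586% and 0.107%) and 35.9 and 17.3 in mTEClo (top 0.0579% and 0.290%). Positions overlapped between the states. Summits lay at -205 and -168 bp from the start in mTEChi and at -150 and -230 bp in mTEClo. The stretch they span holds a GC box at -211, the p53 core match at -198 and NF-Y boxes at -187 and -176 of the printed promoter. Slc25a37, mitoferrin 1 of red cell precursors, had a single peak in mTEChi replicate 2 (score 2.88) and in mTEClo replicate 1 (score 8.0) and none in the other 2 libraries. The glutathione carriers Slc25a39 and Slc25a40 were called in 3 and 2 libraries.

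Among the uncoupling protein-like members, Slc25a27, known from brain, had a summit within 59 bp of a gene end in all 4 libraries. Its scores were 8.46 and 6.61 in mTEChi (top 6.94% and 5.13%) and 11.4 and 6.57 in mTEClo (top 2.52% and 8.0%). Slc25a14 was called in mTEClo replicate 1 alone. Slc25a46, an outer membrane member tied to mitochondrial shape, was called in all 4 libraries, with best peaks in the top 16.9% and 5.13% in mTEChi and the top 12.8% and 79.5% in mTEClo. Slc25a34, an orphan carrier, was the 1 member that mTEClo libraries alone called together (2.13%, against 2.14% of all genes). Its best summits there, 4871 and 2675 bp outside the gene with scores of 4.56 and 3.48, were nearer to Tmem82. No member was called in both mTEChi libraries alone (0 of 47, against 1.67% of all genes). Slc25a33, a pyrimidine nucleotide carrier, missed a call in mTEChi replicate 2 by a summit 5586 bp away. The mTEClo-alone count rested on which libraries were used, since it was 4 without mTEChi replicate 1, 5 without mTEChi replicate 2 and 3 without mTEClo replicate 2.

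Over the family, best peaks ranked higher in both mTEChi lists than in both mTEClo lists for 8 of the 27 members called in all 4 libraries (29.6%, against 20.7% of the 11228 such genes). The reverse order held for 4 (14.8%, against 17.4%). The 8 were Slc25a11, Slc25a13, Slc25a16, Slc25a20, Slc25a23, Slc25a35, Slc25a42 and Slc25a44, and the 4 were Slc25a18, Slc25a21, Slc25a22 and Slc25a29. For the remaining 15 the positions overlapped. The best peaks compared did not always lie at the same site, so these counts do not show a stronger peak at a site. At Slc25a20 the best mTEChi replicate 2 peak lay 3540 bp before the start. At the region held in all 4 libraries (chr9:108661827-108662272), that library stood in the top 97%, below the mTEClo libraries at 69.7% and 64.6%. A best peak in the top 1% of all 4 lists was found at 4 members, Slc25a3, Slc25a28, Slc25a41 and Slc25a42 (8.51%, against 1.49% of all genes). The top 5% of all 4 lists held no further member (8.51%, against 5.51%). At Slc25a41 that peak is the one nearer to Khsrp. Peaks in member windows were nearest to the end of another protein-coding gene in 25 of 112 and 23 of 112 cases in mTEChi and in 29 of 130 and 25 of 96 cases in mTEClo. Some of these peaks lay inside the member itself, as in the long Slc25a21, where an end of Pax9 was nearer than its own. The same share over all genes was not counted, so nothing is read from these cases.

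The 250 bases before the start were compared for 36 members and 17274 protein-coding genes, in 1 promoter per gene. Members without an entry in the table include Slc25a2, Slc25a26, Slc25a27, Slc25a32, Slc25a35, Slc25a37, Slc25a41, Slc25a44, Slc25a46 and Slc25a51. A GC box GGGCGG was found on either strand in 24 member promoters (66.7%, against 43.2% of all), the Ets motif CCGGAAG in 6 (16.7%, against 9.25%) and the NF-Y box CCAAT in 16 (44.4%, against 36.7%). The E-box CACGTG was found in 6 (16.7%, against 6.72%), the cAMP response element TGACGTC in 3 (8.33%, against 3.51%) and the TATA box TATAAA in 1 (2.78%, against 12.5%), that of Slc25a18. The p53 core motif had a match in 4 (11.1%, against 6.30%), at Slc25a11, Slc25a12, Slc25a28 and Slc25a43. A match says only that the letters are present, and a p53 core match is not a full p53 site. All searches covered both strands, and no letters were shared between the matches printed above.

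Members with a summit inside these 250 bases in all 4 libraries were Slc25a3, Slc25a4, Slc25a20 and Slc25a28 (11.1%, against 6.58% of all promoters). Their median GC content was 60.8% and their median number of CpG dinucleotides 17.5. In the 10 members with a summit there in 1 to 3 libraries the medians were 62.2% and 18. In the 22 members with no summit there in any library the medians were 58.2% and 11. Over all genes the same medians were 60.4% and 18 with a summit in all 4 libraries, 60.4% and 16 with 1 to 3, and 51.6% and 5 with none. Slc25a1 has a promoter of 70% GC with 25 CpG dinucleotides and 4 GC boxes, and no listed peak.

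Other genes of mitochondrial transport were counted beside 51.9% of all genes called in all 4 libraries and 12.8% called in none, without a test. Of 5 carriers of the same family under other symbols, 3 were called in all 4 libraries: Ucp2, an uncoupling protein, and Mtch1 and Mtch2, outer membrane members. Ucp3 was called in both mTEClo libraries alone, as were 2.14% of all genes. Of 17 other mitochondrial transporters and channels, 13 were called in all 4 libraries, 1, Sfxn3, in none and 1, Vdac3, in both mTEClo libraries alone. Mpc2, a subunit of the mitochondrial pyruvate carrier, had best peaks in the top 0.577% and 0.192% of the mTEChi lists and the top 0.137% and 0.137% of the mTEClo lists. Of 13 genes of the path that imports carriers into mitochondria, 9 were called in all 4 libraries. Tomm40, the pore of the outer membrane translocase, stood in the top 0.0150% and 0.0950% in mTEChi and the top 0.00668% and 0.0692% in mTEClo. Timm13, a chaperone of the intermembrane space, stood in the top 0.278% and 1.12% in mTEChi and the top 0.693% and 4.84% in mTEClo. Agk, a subunit of the carrier translocase, was called in both mTEChi libraries alone, as were 1.67% of all genes.

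The lists held 73510 and 85308 peaks in mTEChi and 89809 and 69359 peaks in mTEClo. Sequencing depth is unknown, and no control library was analysed here, so a missing peak is not shown to be missing signal. Peaks are not expression, and 51.9% of all genes were called in all 4 libraries, so marker calls do not check the labels. The windows of the mature mTEC genes Aire, Cd80, H2-Aa and Cd40 were called in all 4. Of 5 thymic epithelial genes, 4 were called in all 4 libraries, and Psmb11, a cortical epithelial gene, in 2. Of 5 thymocyte genes, 2 and 4 were called in mTEChi and 4 and 5 in mTEClo, beside 69.3% and 73% of all genes in mTEChi and 75.5% and 68.8% in mTEClo, and the part of other cells in the carrier peaks was not tested.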

How the data were processed

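CUT&RUN peak lists of 2 mTEChi and 2 mTEClo libraries were used, 1 list per library, and groups and replicate numbers came from the sample titles. MACS2 2.2.7.1, SAMtools 1.9, Picard and Bowtie2 2.2.9 stand beside mm10 in the submitters' processing notes, without settings or control. The deposited intervals are 301 bp wide, and each was read as a summit with 150 bp on either side. The authors deposited 1 score per peak, taken here to be −log10 scaled, from a p-value or a q-value; its lowest value was 2 in each list. It was used only for ranks within a list, with tied peaks at their mean rank.

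Genes came from a RefSeq table of GRCm38.p6. Starts and strands came from a RefSeq promoter table, and either gene end stood in for the start of genes without an entry. No genome or protein table was used, so the planned protein comparison was not run and exons were not assigned. Peaks were merged into regions where they shared at least 1 bp. Libraries were the units of an exact permutation test (two-sided), since genes are not replicates. The members, gene lists, motifs and tests were chosen with earlier results of these data known. Named members were Slc25a54, the 10 called in all 4 libraries with the lowest worst rank, those called in 1 state alone or in none, the nearest calls on either side of 5 kb, and a set group of adenine nucleotide, phosphate, citrate, iron and ATP-Mg/phosphate carriers. From each other list, up to 3 called in all 4 libraries were named. The values of 1 member are not reported here. Other members were named after their values were seen, as were Ucp3, Vdac3, Sfxn3 and Agk. On simulated lists with peaks planted in the windows of 400 genes far from other genes, all 400 were given the right class. This checks the counting alone, since the planting set the outcome, and it does not cover genes with close neighbours. Scripts ran in Python 3.11.15 (matplotlib 3.10.9, pandas 2.3.3, numpy 2.4.6).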

Additional observations from a re-analysis of the deposited data

How the results depend on the processing

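The lower number of called members in mTEChi (difference -4, without Slc25a54) kept its direction in every alternative run except the 10000 highest peaks, where it was 3.5; it was -0.5 with peaks above the median score, -1.5 with 25 kb windows and -2.5 with 1 kb windows, and leaving out a library gave -4.5 to -3.5. The density difference of -0.0231 peaks per 100 kb was 0.0462 with peaks above the median score, 0.0925 with the 10000 highest, 0.0277 with 1 kb windows, 0.270 without Slc25a21, and -0.786 to 0.740 with a library left out, turning without mTEChi replicate 2 (0.0231) or mTEClo replicate 1 (0.740). The difference in members marked at the start, -1, was 5.5 above the median score, 0.5 with equal lists of 69359 peaks, 3 with the 10000 highest, 0 within 3 kb, and -8.5 to 6.5 with a library left out, turning without mTEClo replicate 1 (6.5). Members called in all 4 libraries numbered 13 above the median score, 7 with the 10000 highest and 27 to 31 with a library left out, against 27. They numbered 24 with 1 kb windows, 38 with 25 kb windows, 21 by gene ends and 20 by peaks nearest to the member. Those called in mTEChi alone numbered 1 above the median score, 2 with the 10000 highest and 0 to 1 with a library left out (1 without mTEChi replicate 1 or mTEClo replicate 1), against 0. Those called in mTEClo alone numbered 2 above the median score or with equal lists, 3 with the 10000 highest or by gene ends, 0 with 1 kb windows, 2 by peaks nearest to the member and 1 to 5 with a library left out, against 1. Apart from changes made by fewer peaks or libraries, the cause was not tested. Restricting peaks to those nearest to the member, leaving out Slc25a21 and crossing the replicate numbers were chosen after seeing the data.

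With the replicate number as a block, the differences stayed -4 (two-sided exact sign-flip test, p = 0.5, the smallest it can give), -0.0231 (p = 1) and -1 (p = 1), and 0 of 3 passed, as with the numbers crossed. Deviations of same-numbered libraries in peaks per gene window had a correlation of -0.138 over all protein-coding genes, and of -0.0149 on a log2 scale. The labels do not say that numbers pair libraries. Depth is unknown, and the length of a list limits which weak peaks it can hold.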

Other observations

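Outside the 5 kb window, both mTEClo lists had a further peak before Slc25a54, 10.9 kb from its start in replicate 1 (score 5.12) and 11.4 kb from it in replicate 2 (score 3.48). These peaks did not overlap each other, and neither mTEChi list had a peak between 20 kb before the start and the start itself.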
